A study of Mus musculus with 10 samples.

Results

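Smooth muscle contractile genes were followed in secondary palate tissue from E14.5 mouse embryos through 9 genes, which were Acta2, Actg2, Tagln, Cnn1, Lmod1, Smtn, Myh11, Mylk and Myocd. Every probe set that the platform annotation ties to exactly 1 of these genes, by current or former symbol, was kept, which gave 15 of the 45101 probe sets on the array and 9 of the 18194 genes with a symbol of their own. Of the 9 genes, 5 had 1 probe set and 4 had several. The mutant group had 5 arrays of genotype Tgfbr2fl/fl;Wnt1-Cre, and the control group had 5 arrays of genotype Tgfbr2fl/fl, called wildtype in the titles. Both groups were of strain C57B6 at E14.5, and both carried the floxed alleles of Tgfbr2, the type II TGF-beta receptor gene. Embryo sex is labelled as not determined. The Wnt1-Cre transgene recombines floxed alleles in the neural crest and its descendants, so cells of other origin in the dissected palate, such as endothelium, skeletal myoblasts and epithelium, keep the receptor. Whether every sample is a different embryo is not stated in the labels, and p-values therefore reflect the spread among these samples. The study asks which genes TGF-beta regulates while the palatal shelves fuse.

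Smooth muscle cells contract by sliding actin thin filaments over thick filaments of smooth muscle myosin. Contraction is switched on when calcium leads to activation of myosin light chain kinase, which phosphorylates the regulatory light chain of myosin. Most genes of this apparatus are driven by serum response factor (SRF), which binds a DNA element called the CArG box, together with its coactivator myocardin, and TGF-beta is a well-known inducer of them in cultured mesenchymal and neural crest cells. In the embryonic head, the neural crest supplies most vascular smooth muscle cells and pericytes. Some of the genes are also active outside smooth muscle: Acta2 in myofibroblasts and in immature skeletal muscle, and Mylk in many cell types.

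The promoter windows of the member with the largest negative difference, Acta2, of a member that fell, Smtn, and of the member that rose, Mylk, are shown because SRF and TGF-beta act at promoters. Each window runs from 250 bases before to 50 bases after a RefSeq transcript start (build GRCm38.p6), 5′ to 3′ on the strand of the gene. Capitals mark CArG boxes, that is CC, a run of 6 bases and GG, in which 1 of the 6 central bases was C or G and the others were A or T. The Acta2 window is chr19:34255324-34255623, minus strand, the Smtn window is chr11:3539243-3539542, minus strand, and the Mylk window is chr16:34784700-34784999, plus strand, which is only 1 start of this gene.
Acta2: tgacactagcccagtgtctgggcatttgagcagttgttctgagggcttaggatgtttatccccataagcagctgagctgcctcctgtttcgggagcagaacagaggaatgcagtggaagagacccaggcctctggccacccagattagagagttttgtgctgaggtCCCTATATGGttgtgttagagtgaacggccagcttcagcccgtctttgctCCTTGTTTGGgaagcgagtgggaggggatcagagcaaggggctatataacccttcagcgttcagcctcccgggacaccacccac
Smtn: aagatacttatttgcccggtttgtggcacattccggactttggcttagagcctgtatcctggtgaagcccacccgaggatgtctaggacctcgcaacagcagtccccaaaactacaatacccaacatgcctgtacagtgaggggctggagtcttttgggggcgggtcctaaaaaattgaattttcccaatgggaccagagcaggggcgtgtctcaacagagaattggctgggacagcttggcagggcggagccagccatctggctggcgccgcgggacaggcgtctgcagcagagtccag
Mylk: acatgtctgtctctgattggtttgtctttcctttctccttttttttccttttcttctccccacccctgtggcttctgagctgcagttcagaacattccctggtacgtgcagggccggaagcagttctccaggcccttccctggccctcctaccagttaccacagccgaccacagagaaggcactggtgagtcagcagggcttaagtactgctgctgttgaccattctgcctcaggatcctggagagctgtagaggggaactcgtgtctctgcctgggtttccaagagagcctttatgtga

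The Acta2 window held a pair of such elements, CCCTATATGG starting 84 bases before the transcript start and CCTTGTTTGG starting 34 bases before it. No CArG element of this form was found in the windows of Smtn, Mylk, Cnn1 and Lmod1, and none of the 5 windows held a CArG box with only A and T in its centre. Of the 32851 promoter windows in the RefSeq table, 8.50% held an element with 1 central C or G, and 1.63% held one with only A and T. The CArG form reads the same on both strands. The SMAD-binding letters CAGAC, searched on both strands, were found once each in the windows of Acta2, Cnn1, Smtn and Mylk and not in that of Lmod1, and 49.6% of all windows held them. Such matches are a description of letters and do not show binding, and other starts and distant elements were not searched.

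The deposited log2 values, which the authors made with RMA and gave with 1 decimal, ran from 2.2 to 14.3 over the arrays, with array medians of 6.4 or 6.5. On the first principal component (37.4% of the variance) control replicate 1 was placed at 80.3, away from the other 9 arrays at -21.0 to 2.72. Tgfbr2 itself read 10.7 or 10.8 in mutant arrays and 10.5 to 10.8 in control arrays on its brightest probe set, and its probe sets cannot be placed relative to the deleted part here, so these values do not check the deletion. All 10 markers of palate mesenchyme in the list used were bright, with means from 8.88 (Msx1) to 12.30 (Prrx1). The number of arrays limits the precision.

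Smooth muscle contractile genes did not move together in the mutant palate. Mylk, the kinase that switches contraction on, rose by 1.65-fold, and Myh11, the smooth muscle myosin heavy chain, and Smtn, the actin-associated protein smoothelin, fell by 0.52 and 0.40 on the log2 scale (1.43-fold and 1.32-fold lower). Acta2, smooth muscle alpha-actin, had the largest negative difference, -0.72 (1.65-fold lower), at an adjusted p just above the threshold. Tagln, Cnn1, Lmod1, Actg2 and Myocd did not pass. In limma with Benjamini-Hochberg adjustment over 45037 probe sets and a threshold of 0.05, 1 of the 15 probe sets was called higher and 2 were called lower, where 1.07% of all probe sets were called higher and 2.18% lower, 3.26% in all. The mutant arrays lay all above the control arrays for 3 of the 15 probe sets and all below them for 2, where 1.45%, 3.42% and, in all, 4.87% of the probe sets on the array did so. The 3 probe sets above were all of Mylk, and the annotation lists the same source sequence for them, so they are not independent readings. At an unadjusted p under 0.05 the count was 7 of the 15, again with the 3 of Mylk among them, where 19.6% of all probe sets passed. The median log2 fold change was -0.06 over the 15 probe sets and 0.00 over all probe sets.

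**Figure D1:**
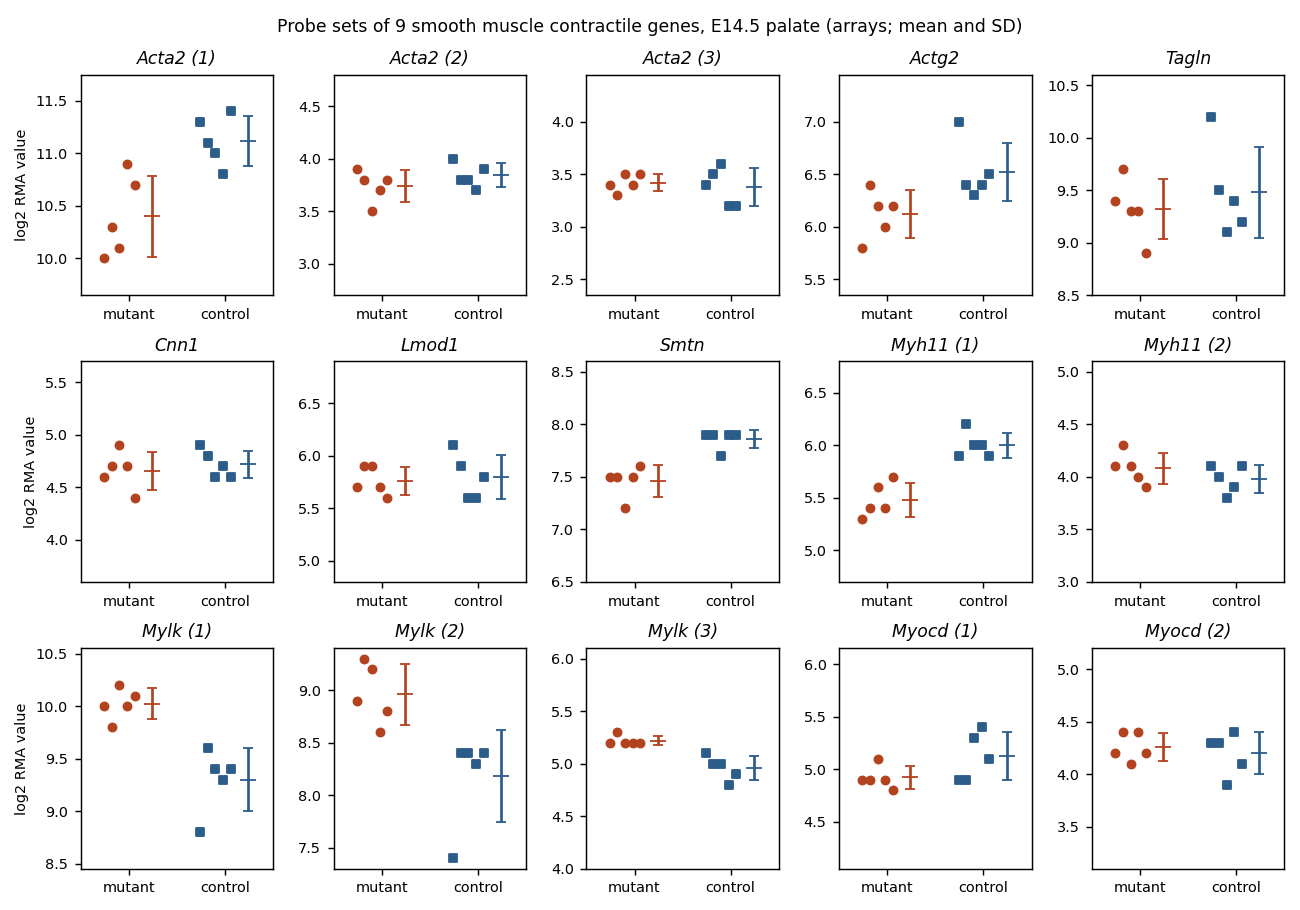
Log2 RMA values (y axis, each panel spanning the same number of log2 units) of the 15 probe sets in the 5 mutant arrays (circles, left) and the 5 control arrays (squares, right), with the mean and SD beside the points. Numbers in brackets order the probe sets of a gene from brightest to dimmest. Smtn, Myh11 (1) and the 3 Mylk probe sets show groups that do not overlap, while Acta2 (1) overlaps through mutant replicate 4, at 10.9.

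Among the thin filament genes, Acta2 gave the widest spread between mutant arrays. Its brightest probe set, 1416454_s_at, read 10, 10.3, 10.1, 10.9 and 10.7 in mutant replicates 1 to 5, against 11.3, 11.1, 11, 10.8 and 11.4 in control replicates 1 to 5. Mutant replicates 1 to 3 lay well below every control, and mutant replicates 4 and 5 lay near the lowest control, which mutant replicate 4 exceeded. The means were 10.40 ± 0.39 in mutant and 11.12 ± 0.24 in control arrays (SD, n = 5 each), a log2 fold change of -0.72 (95% confidence interval, CI, -1.11 to -0.33, limma adjusted p = 0.0517). When each gene stood as its brightest probe set and the adjustment ran over 18193 genes, limma gave adjusted p = 0.0282 for the same difference. Without mutant replicate 4, the mutant array that overlapped the controls, the difference was -0.84 (adjusted p = 0.0290). No other array left out gave a call (limma adjusted p of 0.0553 or more). This probe set was called under 5 of 21 alternative fits in all. The suffix _s_at marks a probe set that may also match transcripts of related genes. The other Acta2 probe sets were near the low end of the arrays: 1456658_at read 3.5 to 3.9 in mutant and 3.7 to 4.0 in control arrays, and 1444105_at read 3.3 to 3.5 in mutant and 3.2 to 3.6 in control arrays. Neither passed (adjusted p = 0.547 and 0.834), and at this brightness they carry little information on the gene.

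Smtn, which encodes a protein bound to actin stress fibres of contractile smooth muscle, fell in the mutant palate. Its probe set read 7.5, 7.5, 7.2, 7.5 and 7.6 in mutant replicates 1 to 5, against 7.9, 7.9, 7.7, 7.9 and 7.9 in control replicates 1 to 5. Every mutant array lay below every control array, and replicate 3 was the lowest of its group in both groups. The log2 fold change was -0.40 (95% CI -0.58 to -0.22, limma adjusted p = 0.0261), which is 1.32-fold lower. The call was lost without mutant replicates 1 or 2 or control replicates 4 or 5 (adjusted p = 0.0563, 0.0545, 0.0565 and 0.0586), with differences of -0.39 to -0.41.

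Actg2, the gamma-actin of visceral smooth muscle, read 5.8, 6.4, 6.2, 6.0 and 6.2 in mutant replicates 1 to 5, against 7.0, 6.4, 6.3, 6.4 and 6.5 in control replicates 1 to 5. Control replicate 1 was the highest array, and mutant replicate 2 reached the controls. The log2 fold change was -0.40 (95% CI -0.71 to -0.09), at an unadjusted p of 0.0167 and limma adjusted p = 0.152, so it did not pass.

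Tagln, which encodes the actin cross-linking protein SM22-alpha and is a standard early marker of the lineage, differed by less than its spread. It read 9.4, 9.7, 9.3, 9.3 and 8.9 in mutant replicates 1 to 5, against 10.2, 9.5, 9.1, 9.4 and 9.2 in control replicates 1 to 5. Apart from control replicate 1 the groups overlapped almost fully. The log2 fold change was -0.16 (95% CI -0.60 to 0.28, limma adjusted p = 0.697), and it was 0.02 without control replicate 1, so its sign rests on that array. The interval reaches a 1.5-fold decrease (its lower bound is a ratio of 0.660), so such a change is not excluded for Tagln.

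Cnn1 and Lmod1, which mark mature contractile cells, showed narrow ranges in both groups. Cnn1, calponin 1, a thin filament protein that inhibits the myosin ATPase, read 4.4 to 4.9 in mutant and 4.6 to 4.9 in control arrays, with a log2 fold change of -0.06 (95% CI -0.27 to 0.15). Lmod1, leiomodin 1, which nucleates actin filaments, read 5.6 to 5.9 in mutant and 5.6 to 6.1 in control arrays, with a log2 fold change of -0.04 (95% CI -0.27 to 0.19). Both intervals lie inside a 1.5-fold change in either direction (limma adjusted p = 0.767 and 0.870). Both probe sets were dimmer than the median of all probe sets, at percentiles 25.0 and 40.2 of brightness. Their intervals therefore bound the array signal and do not exclude a larger change in RNA.

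Myh11 encodes the myosin heavy chain that forms the thick filaments of smooth muscle and is the most specific marker among the members. Its brighter probe set, 1448962_at, read 5.3, 5.4, 5.6, 5.4 and 5.7 in mutant replicates 1 to 5, against 5.9, 6.2, 6.0, 6.0 and 5.9 in control replicates 1 to 5. Every mutant array lay below every control array. The log2 fold change was -0.52 (95% CI -0.72 to -0.32, limma adjusted p = 0.0145), and the call was kept in all 10 fits that left out 1 array. The dimmer probe set, 1418122_at, for which the annotation lists the same source sequence, read 3.9 to 4.3 in mutant and 3.8 to 4.1 in control arrays, with a log2 fold change of 0.10 (95% CI -0.09 to 0.29, adjusted p = 0.564). That probe set lay at the 15.5th percentile of brightness, against the 39.7th for 1448962_at, and the decrease of Myh11 therefore rests on 1 probe set.

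Mylk gave higher values in mutant arrays on all 3 of its probe sets. The gene makes a long and a short form of myosin light chain kinase and, from its last part, the small protein telokin. The brightest probe set, 1425506_at, read 10, 9.8, 10.2, 10 and 10.1 in mutant replicates 1 to 5, against 8.8, 9.6, 9.4, 9.3 and 9.4 in control replicates 1 to 5. Every mutant array lay above every control array, and the lowest value was that of control replicate 1. The log2 fold change was 0.72 (95% CI 0.43 to 1.01, limma adjusted p = 0.0197), which is 1.65-fold higher. The call was lost without mutant replicate 3 (0.68, adjusted p = 0.0591) or mutant replicate 5 (0.70, adjusted p = 0.0528).

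The other Mylk probe sets separated the groups but did not pass. Probe set 1425505_at read 8.9, 9.3, 9.2, 8.6 and 8.8 in mutant replicates 1 to 5, against 7.4, 8.4, 8.4, 8.3 and 8.4 in control replicates 1 to 5, a log2 fold change of 0.78 (95% CI 0.34 to 1.22, limma adjusted p = 0.0618). Probe set 1425504_at, which was dim, read 5.2 or 5.3 in mutant arrays and 4.8 to 5.1 in control arrays, with a log2 fold change of 0.26 (95% CI 0.12 to 0.40, adjusted p = 0.0564). Without control replicate 1, all 3 passed, so the count of member probe sets called higher was 3 without it and 1 with it. The log2 fold changes without it were 0.60, 0.58 and 0.30, smaller for both brighter probe sets. The annotation lists the same source sequence for the 3 probe sets, so they are not independent readings, and which of the forms they match is unknown here.

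Myocd, which encodes myocardin, the coactivator of SRF that commits cells to smooth muscle, was dim on both probe sets and did not pass on either. The brighter one, 1425978_at, read 4.9, 4.9, 5.1, 4.9 and 4.8 in mutant replicates 1 to 5, against 4.9, 4.9, 5.3, 5.4 and 5.1 in control replicates 1 to 5. The groups overlapped at 4.9 and at 5.1, with a log2 fold change of -0.20 (95% CI -0.43 to 0.03, limma adjusted p = 0.326). The other, 1425808_a_at, read 4.1 to 4.4 in mutant and 3.9 to 4.4 in control arrays (log2 fold change 0.06, adjusted p = 0.783).

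**Figure D2:**
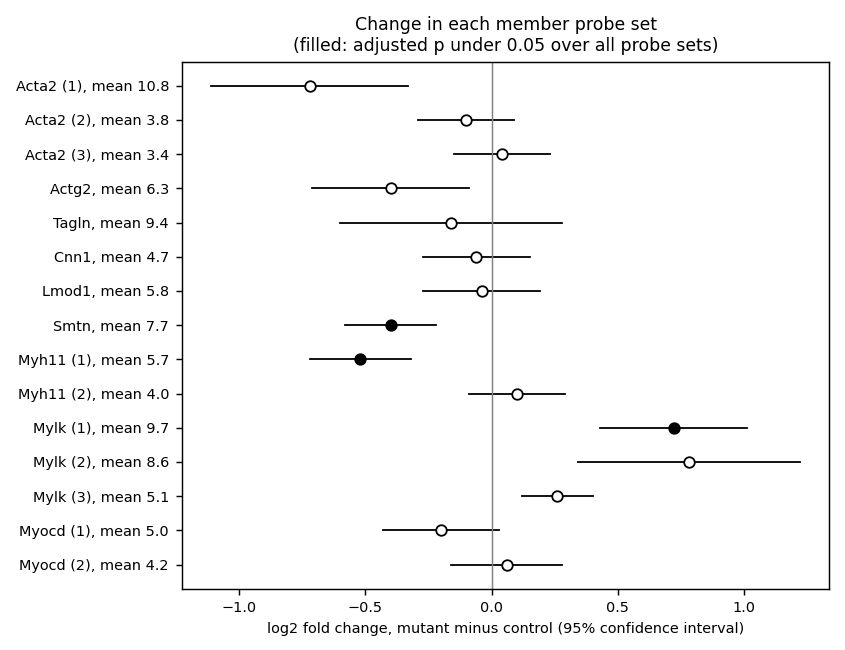
Log2 fold change of each member probe set, mutant minus control (x axis), with its 95% confidence interval, in the order thin filament, thick filament and kinase, coactivator, each with its mean log2 value over the 10 arrays. Filled points passed an adjusted p of 0.05: Smtn at -0.40, Myh11 (1) at -0.52 and Mylk (1) at 0.72.

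Brightness differed widely over the members. Of the 15 probe sets, 10 were dimmer than the median of all probe sets and 4 read below 4.5 in every array. For 12 probe sets that were not called, the confidence intervals of 8 lay inside a 1.5-fold change in both directions and those of 4 reached it, which were the brightest of Acta2, Actg2, Tagln and Mylk 1425505_at. All 8 were dim, at brightness percentiles 7.04 to 40.2, so their narrow intervals do not exclude a 1.5-fold change in RNA. Mylk 1425504_at is among them, with a log2 fold change of 0.26, where the brighter Mylk probe sets gave 0.72 and 0.78. Over genes, each as its brightest probe set, 8 of the 9 had a negative log2 fold change and 1, Mylk, a positive one, with a median of -0.20 over the 9 genes and 0.00 over all 18193 genes. Among the negative ones, Lmod1 (-0.04), Cnn1 (-0.06) and Tagln (-0.16) changed sign when 1 array was left out. The share of negative signs over all genes was not counted. In bulk tissue, fewer smooth muscle cells and less RNA per cell cannot be told apart.

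The members also varied together across arrays in different ways. Over the 10 arrays, the brightest Acta2 probe set correlated at 0.82 with Smtn, at 0.71 with Myh11 1448962_at and at 0.65 with Actg2, and at -0.72 with Mylk 1425506_at (Pearson's r, a description over arrays that share 1 normalization and 2 groups). Without control replicate 1 these values were 0.79, 0.71, 0.59 and -0.68. Tagln followed Lmod1 (0.81) and Cnn1 (0.72) more than it followed the others. That ranking was lost without control replicate 1, where the values were 0.63 and 0.62 and Myh11 1418122_at, a dim probe set, was at 0.68.

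Among 8625 other genes of at least median brightness, those whose pattern was most like that of Acta2 were Tubb6 (r = 0.947), Mcm2 (0.945), Mrpl18 (0.937), Isy1 (0.923) and Hspa14 (0.922), over 10 arrays. Those most like Mylk 1425506_at were Nudt6 (r = 0.994), Ldb2 (0.981), Slc2a13 (0.976), Serpinf1 (0.970) and Sned1 (0.967). The choice used arrays of both groups, so the group differences of these genes largely follow from it and are no further observation. Nudt6 read 9.2 to 9.5 in mutant and 8.2 to 9.0 in control arrays (log2 fold change 0.70, SE 0.13, limma adjusted p = 0.0193), although its other probe set gave -0.14 and the call was lost without mutant replicates 1, 3 or 5. Mcm2, a subunit of the replicative helicase, read 9.7 to 10 in mutant and 10.1 to 10.3 in control arrays (log2 fold change -0.34, SE 0.08, adjusted p = 0.0415), a call kept in 2 of the 10 fits that left out an array. The r values without control replicate 1 were 0.908 to 0.961 for the Acta2 genes and 0.937 to 0.989 for the Mylk genes.

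Markers of skeletal muscle, whose immature fibres also use Acta2, fell in part in the mutant palate. Of 16 such markers, 6 were called lower, none higher and 10 were not called, where 3.09% of 18193 genes were called lower and 1.48% higher, and the log2 fold change was negative for all 16. Myh7, a slow myosin heavy chain, Myf5, a factor that commits cells to skeletal muscle, and Actn2, sarcomeric alpha-actinin, had log2 fold changes of -1.74, -1.86 and -1.98 (limma adjusted p = 0.00218, 0.00682 and 0.0261), and the call of Actn2 was lost without mutant replicates 1, 2, 3 or 5 or control replicate 3. The median deviation of the list was -0.82, -1.65, -1.73, 0.66 and -0.87 in mutant replicates 1 to 5, against 0.52, 1.02, 0.86, 0.46 and 2.01 in control replicates 1 to 5. Mutant replicate 4 was the highest mutant array and control replicate 5 the highest control array for both the list and Acta2, and control replicate 4 was the lowest control for both. Other arrays were placed differently: mutant replicate 1 was the lowest mutant for Acta2 but the second highest for the list, and control replicate 1 was the second highest control for Acta2 but the second lowest for the list. The summed linear signal of the list was 1220 to 9580 in mutant and 7500 to 24000 in control arrays. Its dimmest marker was Myf5, with a mean log2 value of 4.61, and none of its markers is at 0, since RMA gives no zero.

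The striated muscle actins, Acta1 and Actc1, are among these 16 markers, so their values show part of the list and are no further observation. Acta1, the skeletal alpha-actin gene, read 8.7, 7.3, 7.0, 10 and 8.1 in mutant replicates 1 to 5, against 9.8, 10.4, 10.4, 9.6 and 11.8 in control replicates 1 to 5. Actc1, the cardiac alpha-actin gene that embryonic skeletal muscle also uses, read 8.1 to 11.5 in mutant and 10.9 to 12.5 in control arrays. Neither passed (log2 fold changes of -2.18 and -2.0, limma adjusted p = 0.0581 and 0.0749). With the list's median deviation as a covariate, the log2 fold changes were -0.20 for Acta2 (adjusted p = 0.770), -0.30 for Smtn (0.482), -0.60 for Myh11 1448962_at (0.284) and 0.83 for Mylk 1425506_at (0.304). With that covariate limma called 1 of the 45037 probe sets, so it ends nearly all calls of the series. The part of skeletal muscle cells in the Acta2 difference was not tested.

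**Figure D3:**
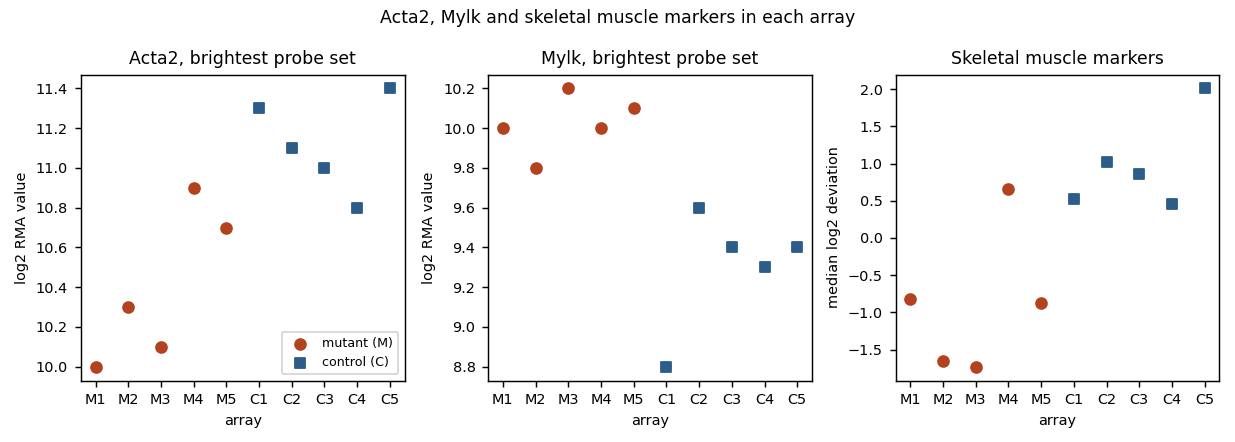
Log2 RMA values of the brightest probe sets of Acta2 and Mylk and the median log2 deviation of 16 skeletal muscle markers (y axes) in mutant replicates (M, circles) and control replicates (C, squares). Mutant replicate 4 is the highest mutant array for Acta2 (10.9) and for skeletal muscle markers (0.66), and control replicate 1 is the lowest array for Mylk (8.8).

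The Y-linked gene Eif2s3y also differed between the groups: it read 9.0 to 9.3 in mutant replicates 1 to 4 and 5.1 in mutant replicate 5, against 9.0 or 9.1 in control replicates 1 and 4 and 3.2 or 3.3 in the other controls. With Eif2s3y as a covariate, the calls of Myh11 1448962_at (-0.44, limma adjusted p = 0.0516) and Smtn (-0.39, adjusted p = 0.0704) were lost and that of Mylk 1425506_at was kept (0.89, adjusted p = 0.0122). Acta2 1416454_s_at gave -0.61 (adjusted p = 0.141) and Tagln -0.44 (adjusted p = 0.202), neither of them called. The part of Eif2s3y in these results was not tested further.

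In each of 4 lists of other smooth muscle pathway genes, at most 1 gene was called, which is near the background of 4.58% of 18193 genes called (1.48% higher and 3.09% lower). Among 15 genes of myosin light chains, nonmuscle myosins, light chain phosphatase and its regulators, 1 was lower, none was higher and 14 were not called, and the median log2 fold change was -0.02. The decrease was that of Myl9, the regulatory light chain of smooth muscle myosin that Mylk phosphorylates. Myl9 read 9.9, 10, 9.7, 10 and 10.1 in mutant replicates 1 to 5, against 10.4, 10.6, 10.6, 10.2 and 10.4 in control replicates 1 to 5 (log2 fold change -0.50, SE 0.10, limma adjusted p = 0.0223). The call was lost without mutant replicates 1, 2 or 3 or control replicate 3 (adjusted p up to 0.0587). The mutant arrays all lay below the controls, so the kinase gene was higher and Myl9 lower in the same arrays. Myl12a and Myl12b, brighter regulatory light chain genes of the same list, did not pass. Their log2 fold changes were -0.04 and -0.12 (limma adjusted p = 0.751 and 0.356), so the contrast with the kinase gene holds for Myl9 only. Ppp1r14a, an inhibitor of the phosphatase found mainly in smooth muscle, was dim and read 4.9 to 5.7 in mutant and 4.8 to 5.7 in control arrays.

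Among 24 genes of actin filaments and their anchoring, 1 was higher, none lower and 23 were not called; the median log2 fold change over the list was -0.07, and 19 of the 24 had a negative value. The increase was that of Tagln2, a relative of Tagln expressed in many cell types, which read 10.5 or 10.6 in mutant and 10.1 to 10.3 in control arrays on its brightest probe set (log2 fold change 0.32, SE 0.06, limma adjusted p = 0.0199). Its other probe sets gave 0.10 and 0.18 without passing, and the call was lost without mutant replicates 2 or 5 or control replicate 3. The cytoplasmic actins Actb and Actg1 had log2 fold changes of -0.06 and -0.02, with 13.8 to 14.0 and 13.6 in mutant arrays against 13.8 to 14.1 and 13.6 to 13.7 in control arrays. Tpm1, a tropomyosin, and Des, the muscle intermediate filament desmin, were lower without passing (-0.38 and -0.46, adjusted p = 0.0954 and 0.171).

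None of 18 genes that control the program with SRF and myocardin was called in limma (against that same background of 4.58%), and their median log2 fold change was 0.02. Srf itself read 8.5 to 8.7 in mutant and 8.7 to 8.8 in control arrays (log2 fold change -0.18, unadjusted p = 0.0188, adjusted p = 0.16). Foxf1, a forkhead factor of visceral mesenchyme, had the smallest p of the list (-0.42, adjusted p = 0.125). Mrtfa and Mrtfb, which encode relatives of myocardin present in most cells, had log2 fold changes of 0.14 and 0.06 and did not pass. Klf4, a repressor of contractile genes, read 10.9 or 11 in mutant and 10.5 to 10.9 in control arrays (0.20) and did not pass.

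Among 13 genes of calcium, cyclic GMP and the cell surface in smooth muscle, 1 was higher, none lower and 12 were not called, and the list's median log2 fold change was 0.06. The increase was that of Gucy1a1, a subunit of the nitric oxide receptor whose product cyclic GMP relaxes smooth muscle. It read 9.5, 9.2, 9.4, 9.5 and 9.5 in mutant replicates 1 to 5, against 8.4, 8.9, 9.1, 9.0 and 9.0 in control replicates 1 to 5 (log2 fold change 0.54, SE 0.12, limma adjusted p = 0.0410). The lowest value of Gucy1a1, as of Mylk, was that of control replicate 1. Its other probe sets gave 0.36 and 0.44 without passing, and the call was kept in only 1 of the 10 fits that left out an array, that without control replicate 1.

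**Figure D4:**
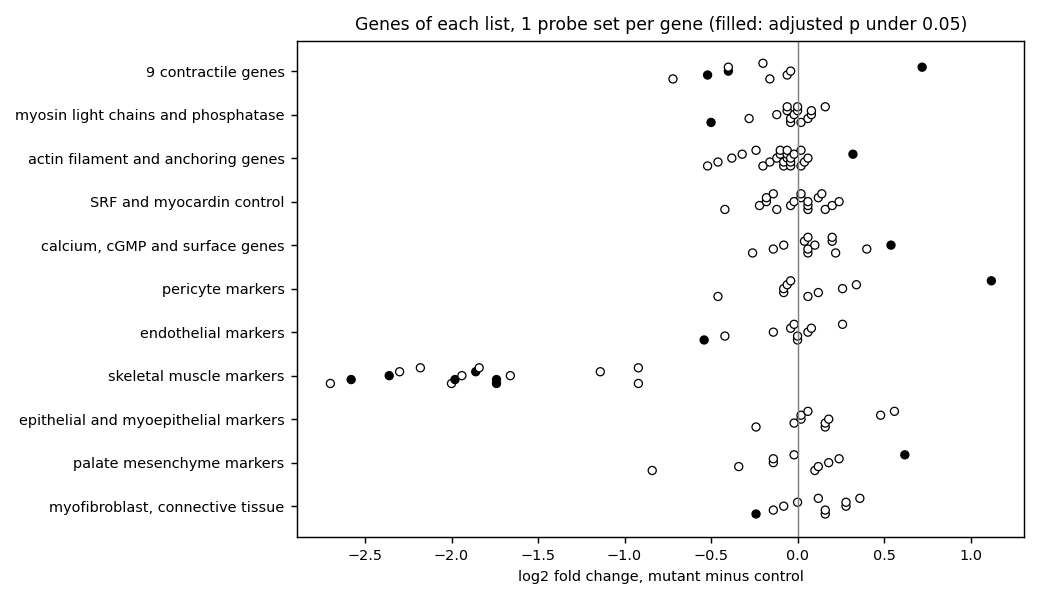
Log2 fold change, mutant minus control (x axis), of the genes of each list (rows), 1 point per gene as its brightest probe set; filled points passed an adjusted p of 0.05. The 9 contractile genes lie between -0.72 and 0.72, and only the 16 skeletal muscle markers of these 11 rows are all shifted to one side, with a median of -1.90.

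Markers of the other vascular cells gave 1 call in each list of 10, against 4.58% of all genes, and members of both signs. Of 10 pericyte markers, 1, Ndufa4l2, was higher (log2 fold change 1.12, SE 0.14, limma adjusted p = 0.00415) and 9 were not called, with a median of 0.01. Rgs5, a regulator of G protein signalling and a common pericyte marker, read 8.7 to 9.0 in mutant and 9.0 to 9.7 in control arrays (-0.46, adjusted p = 0.0588). Pdgfrb, the PDGF receptor of pericytes and other mesenchyme and the brightest marker of the list, read 10.9 to 11.3 in mutant and 10.4 to 11.1 in control arrays (0.34, adjusted p = 0.174). The list's summed linear signal, to which bright markers contribute most, was 5000 to 5790 in mutant and 3630 to 4540 in control arrays. The groups did not overlap on this sum, which includes the called gene Ndufa4l2. Ndufa4l2 read 10.1 to 10.7 in mutant and 9.0 to 9.8 in control arrays. A sum without it was not taken, so this sum does not show a rise across the pericyte markers. The dimmest pericyte marker was Higd1b, with a mean of 4.04. Of 10 endothelial markers, 1, the tight junction gene Cldn5, was lower (-0.54, SE 0.11, adjusted p = 0.0229, lost in 5 of the 10 fits that left out an array) and 9 were not called, with a median of -0.01 and a summed signal of 2550 to 2950 in mutant and 2370 to 3240 in control arrays.

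Of 10 epithelial and myoepithelial markers none was called in limma, and Krt8 had the smallest p (0.56, adjusted p = 0.103). The summed signal of that list was 14500 to 19100 in mutant and 12800 to 21000 in control arrays. Of 10 myofibroblast and connective tissue markers, 1, the TGF-beta target Ccn2, was lower (-0.24, SE 0.06, limma adjusted p = 0.0484, kept in 1 of the 10 such fits) and 9 were not called. The summed signal was 49400 to 54600 in mutant and 36400 to 49800 in control arrays. Control replicate 1 was the lowest control for bright markers of this list. It read 12.4 for Col1a1 and 13.5 for Col3a1, where the other controls read 13.1 or 13.2 and 13.8 or 13.9. Of 10 palate mesenchyme markers, 1, Tbx22, was higher (0.62, SE 0.14, adjusted p = 0.0346, kept in 4 of the 10) and 9 were not called, with a summed signal of 17700 to 20100 in mutant and 15400 to 19900 in control arrays.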

How the data were processed

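The deposited log2 values of 45101 Affymetrix probe sets come from RMA, which corrects background, equalizes array distributions and summarizes probes, per the submitters' processing notes; no version is named there, and batches are not labelled. The platform annotation gave 1 gene symbol for 34958 probe sets, several for 932 and none for 9211; symbols were updated through Entrez IDs in a RefSeq table (GRCm38.p6), which also gave the promoter windows, held there for 5 of the 9 members.

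The test was limma 3.58.1 (lmFit, eBayes) in R 4.3.3, mutant minus control, two-sided, on the 45037 probe sets left after 64 controls, with Benjamini-Hochberg adjustment. For lists, each of 18193 genes stood as its probe set of highest mean over the 10 arrays. The fit was tested on simulated data. It recovered 1 of 50 changes of 1.2-fold, 29 of 50 of 1.5-fold, 42 of 50 of 2-fold and 50 of 50 of 3-fold, with 8 false calls. Small changes were thus often missed. Dim probe sets were not among the changed ones, so these rates do not cover the dim members. The 9 members and the lists were chosen with earlier results of these data known. All member probe sets were named, from each other list the up to 3 called genes with the smallest p or else the 1 with the smallest p, and the 5 genes most like Acta2 and the 5 most like Mylk, passing over clone names and sex-linked genes. Acta1, Actc1, Actb, Actg1, Tpm1, Des, Srf, Mrtfa, Mrtfb, Klf4, Ppp1r14a, Rgs5, Pdgfrb and Eif2s3y were named after their values were seen.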

Additional observations from a re-analysis of the deposited data

Results flagged for a closer look

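In 30 groups of 5 arrays (15 probe sets, each in mutant and in control), 5 values stood apart from the other 4 arrays of their group by more than 0.71 of the whole range. For unrounded, normally distributed values chance sets apart about 1 group in 20. Rounding to 0.1 makes ties, so that rate does not hold exactly here and the 5 are not read as an excess. Control replicate 1 gave a pair of them: it read 7.0 for Actg2, where the other controls read 6.3 to 6.5, and 7.4 for Mylk 1425505_at, where they read 8.3 or 8.4. For Smtn, mutant replicate 3 read 7.2 where the other mutants read 7.5 or 7.6, and control replicate 3 read 7.7 where the other controls read 7.9. For Mylk 1425504_at, mutant replicate 2 read 5.3 where the other mutants all read 5.2, which is 1 rounding step of 0.1.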

How the results depend on the processing

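With the replicate number as a block, limma called 34 probe sets higher and 64 lower, and 0 member probe sets higher and 0 lower (3 and 4 at an unadjusted p under 0.05), and 2 list genes. Same-numbered arrays had deviations that correlated at -0.064 to 0.076, and 0 of 5 mutant arrays were closest to the control array of their own number. The numbers thus gave no sign of pairing, but a pairing of small effect is not excluded by this check. Array weights gave 1131 higher and 1768 lower, 3 member probe sets higher, and 29 list genes. With Eif2s3y as a covariate the counts were 318 higher and 593 lower, 0 member probe sets lower (5 at an unadjusted p under 0.05) and 4 list genes. With the skeletal muscle median as a covariate they were 0 and 1 (1940 and 2664 at an unadjusted p under 0.05), 0 members higher and 0 lower (1 and 3), and 0 list genes. The brighter 60% of probe sets gave 2 member probe sets higher. List genes called were 13, against 25 when genes were tested as their brightest probe set and 22 as the mean of their probe sets; under that mean single probe sets have no value.

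Leaving out each array in turn gave 125 to 769 probe sets higher and 339 to 1241 lower, 0 to 3 member probe sets higher and 1 to 3 lower, and 3 to 22 list genes. The highest counts over all probe sets were those without control replicate 1, and the lowest those without mutant replicate 3. Acta2 1416454_s_at was called under 5 of 21 alternatives (adjusted p from 0.0282 to 0.770), Mylk 1425506_at under 17 of 21, Myh11 1448962_at under 17 of 20 and Smtn under 14 of 21, none with a change of sign. Signs changed near 0 and without a call, and over the arrays left out in turn these probe sets ranged up to 0.095 (Acta2 1444105_at) and 0.11 (Myocd 1425808_a_at) and down to -0.12 (Cnn1), -0.09 (Lmod1) and -0.255 (Tagln): Acta2 1444105_at gave -0.006 with the muscle covariate and -0.005 without control replicate 4 or 5, Cnn1 0.005 without mutant replicate 5, Lmod1 0.033 with array weights and 0.035 without control replicate 1, Myocd 1425808_a_at -0.039 with Eif2s3y and -0.015 without control replicate 3, and Tagln 0.020 without control replicate 1. The cause of these changes was not tested. Values with 1 decimal and dim probe sets limit what small differences can show.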
